A study of Drosophila melanogaster with 12 samples.

Results

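The rhodopsin genes of Drosophila melanogaster, ninaE and Rh2 to Rh7, encode the opsins, receptor proteins that bind a retinal-type chromophore and are activated by light. Probe sets were taken where the platform's annotation names 1 of these 7 genes and no other. This rule found 1 of the 7 genes, Rh7, with 2 probe sets of the 18769 tested (gene 39389, chromosome arm 3L). The other 6 genes matched no probe set under this rule and were not analysed here. Everything below is therefore about Rh7.

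Whole flies of the outbred LHm population, raised at 25 °C, were measured as female larvae, male larvae, female pupae, male pupae, female adults and male adults. Larvae were of the third instar, and the age of pupae and adults within their stage is not given in the sources used here. No mutation, transgene or treatment separates the groups. Each of the 6 groups had 2 arrays, each from a pool of 10 animals, which the study calls biological replicates, so n = 2 for every group value.

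In a fly photoreceptor, an activated rhodopsin switches on a Gq protein, which activates a phospholipase C, and the cation channels TRP and TRPL then open. Arrestins end the activity of the rhodopsin. Rh7 is an opsin that has been described in clock neurons of the adult brain, where it was reported to act as a light sensor. Cryptochrome, encoded by cry, is the other known light sensor of those cells.

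The labels' sexes were borne out by marker genes: over 7 testis genes the mean log2 value was 4.43 to 4.83 on female arrays and 9.94 to 11.32 on male arrays. Over 10 ovary and yolk genes the mean was 12.22 to 12.26 on adult female arrays and 5.33 to 6.03 on all others. Values of a probe set are log2 RMA values, meant to be compared between arrays but not between probe sets. The median over all probe sets was 6.27 to 6.44 on the female arrays and 6.73 to 6.81 on the male arrays. The sizes of the sex differences below therefore depend on the scaling. Of the Rh7 probe sets, one had a mean over the 12 arrays of 4.35, below the 25th percentile of all probe set means (5.06), so its differences may be compressed. On the 10 arrays not from adult males, 14 seminal fluid genes, taken as a background reference, read 2.95 to 7.54. Their median there was 4.22 and their 90th percentile 5.68. All 12 readings of this Rh7 probe set, 3.36 to 5.84, lay within that range, and the adult male reading of 5.84 was above the 90th percentile. Of the 14 genes 1 was not called higher in adult males than in male pupae. The lowest adult male reading of the 14 was 6.95, so the upper end of the range may not be background. The readings of this Rh7 probe set are thus not set apart from the reference, but a range this wide makes that a weak check. The other Rh7 probe set read 6.26 to 7.19, also within the range but above the 90th percentile. No group is called positive or negative for the transcript.

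The 2 Rh7 probe sets gave different pictures. The first, called the _at set below, has the suffix of sets whose probes match a single transcript, and it changed with stage and sex. The second, called the _s_at set below, has the suffix of sets whose probes are shared by several transcripts, and it varied little. Probe sequences were not at hand, so which transcripts, and of which genes, each set reads was not checked. Of 11 comparisons, 6 were called for the _at set and 2 for the _s_at set at a Benjamini-Hochberg adjusted p under 0.05 in limma. The share of all probe sets called ran from 17.5% to 66.3% over these comparisons, so the counts alone do not set Rh7 apart. All adjusted p-values below come from that fit over all probe sets unless another test is named.

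By group mean the _at set of Rh7 was lowest in larvae and highest in adult males. It read 3.56 and 3.36 in female larvae and 3.98 and 4.01 in male larvae. In pupae it read 4.52 and 4.27 in females and 4.57 and 3.98 in males. In adults it read 4.27 and 4.48 in females and 5.37 and 5.84 in males. Both adult male arrays were above all 10 other arrays, and both female larval arrays were below all others. The arrays of male larvae, of pupae of both sexes and of adult females lay between them.

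Ordered by mean, the groups ran from female larvae (3.46 ± 0.14, SD, n = 2) through male larvae (3.99 ± 0.022), male pupae (4.27 ± 0.42), female adults (4.37 ± 0.15) and female pupae (4.40 ± 0.18) to male adults (5.60 ± 0.33). The adult males stood 1.20 above the next group, with no overlap of arrays. The step between female and male larvae was 0.54, again without overlap. Of the 4 groups in the middle, male larvae overlapped only with male pupae. The arrays of male pupae, female adults and female pupae overlapped with one another, and the order of these groups is within the spread. The spread between replicates was wide for this probe set, with a residual SD of 0.25, larger than that of 90.4% of all probe sets.

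The _s_at set of Rh7 stayed between 6.26 and 7.19 on every array. It read 6.75 and 6.93 in female larvae and 6.51 and 6.57 in male larvae. In pupae it read 6.83 and 6.73 in females and 6.26 and 6.53 in males. In adults it read 7.19 and 6.92 in females and 6.49 and 6.78 in males. Within each stage the female arrays were above the male arrays. By mean the order was male pupae (6.39), male larvae (6.54), male adults (6.64), female pupae (6.78), female larvae (6.84) and female adults (7.06), and every neighbouring pair overlapped.

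**Figure D1:**
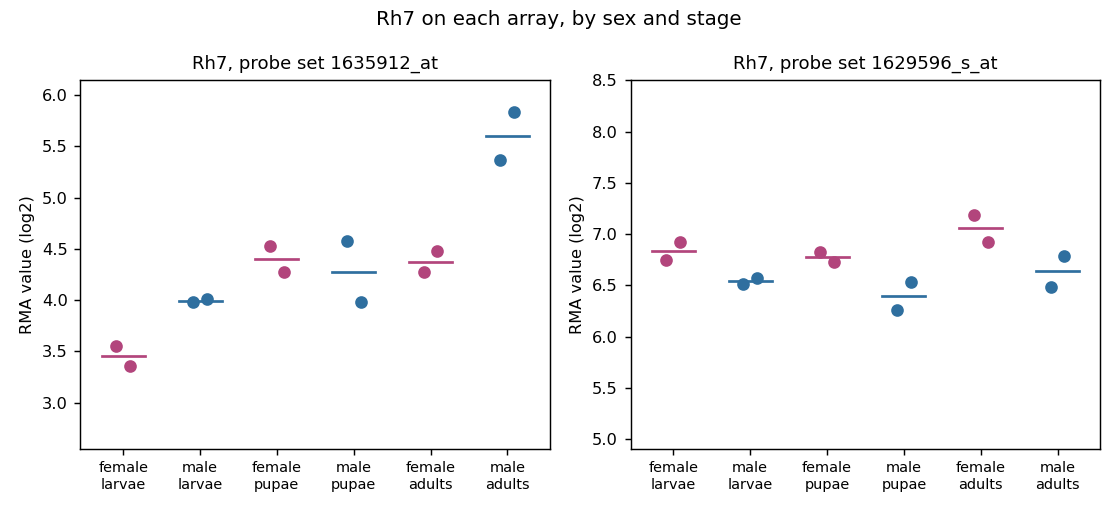
Log2 RMA value of each Rh7 probe set on each of the 12 arrays, with groups by stage and sex on the horizontal axis, a point per array and a line at the mean of the 2 arrays. Adult male arrays (5.37 and 5.84) stand above all others for the _at set, and the readings of the _s_at set lie between 6.26 and 7.19.

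Rh7 was then compared between the sexes at each stage, given as female minus male. In adults the _at set was lower in females, by a log2 difference of -1.23 ± 0.21 (SE, 95% interval -1.69 to -0.77, adjusted p = 0.000307), a ratio of 0.427 of the adult male value. Over all probe sets 65.6% were called in this comparison. The direction and the call held in each alternative that could be run for this probe set, and the size shrank to -0.76 when arrays were centred on their medians. Since whole flies were measured, fewer cells with the transcript and less transcript per cell cannot be told apart.

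In larvae the _at set was also read lower in females than in males, by -0.54 ± 0.21, but the test was not passed (adjusted p = 0.0619), and 39.0% of all probe sets were called. It was passed after quantile normalization (-0.74, adjusted p = 0.0148). Recentring each array on its median deviation from the probe set means also passed it (-0.72, adjusted p = 0.0286). So did a fit of larvae alone (adjusted p = 0.025). It was not passed in every alternative. Over the 6 that leave out no array, the larval difference ran from -0.74 to -0.17, with adjusted p up to 0.439. With 1 array left out it ran from -0.63 to -0.44. In pupae the female and male arrays of the _at set overlapped and the difference of 0.12 ± 0.21 was not called (95% interval -0.34 to 0.58, adjusted p = 0.602). Its sign depended on the scaling: it was -0.13 after quantile normalization, -0.15 after recentring, and 0.50 with a call (adjusted p = 0.0351) under array-median centring.

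For the _s_at set the sex differences were small and female-higher. They were 0.30 ± 0.14 in larvae (adjusted p = 0.12), 0.38 ± 0.14 in pupae (adjusted p = 0.0369, with 66.3% of all probe sets called) and 0.42 ± 0.14 in adults (adjusted p = 0.0243). The median over all probe sets was shifted the same way, with medians of 0.23 for larvae, 0.37 for pupae and 0.21 for adults. Recentring takes out most of that shift. It left 0.11 in larvae, and neither call remained, with 0.11 in pupae (adjusted p = 0.555) and 0.17 in adults (adjusted p = 0.332). Other scalings moved the values up, with calls at all 3 stages. Quantile normalization gave 0.66 in larvae (adjusted p = 0.00268), 0.70 in pupae (adjusted p = 0.000977) and 0.77 in adults (adjusted p = 0.00036). The medians over all probe sets were then 0.19, 0.32 and 0.21. Array-median centring gave 0.67 in larvae (adjusted p = 0.00154), 0.76 in pupae (adjusted p = 0.000513) and 0.89 in adults (adjusted p = 0.000159), beside medians over all probe sets of 0.60, 0.74 and 0.68. The female-higher direction of the _s_at set held under each of these scalings, and its size did not. The call in pupae was also lost in a fit of pupae alone (adjusted p = 0.0525). It was lost too without female pupae replicate 1 (0.33, adjusted p = 0.14), female pupae replicate 2 (0.43, adjusted p = 0.0631) or male pupae replicate 1 (0.25, adjusted p = 0.234). The call in adults was lost without female adults replicate 1 (0.29, adjusted p = 0.173) or male adults replicate 1 (0.27, adjusted p = 0.189).

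The rise of the _at set was called at different steps in females and in males. In females it was 0.94 ± 0.21 higher in pupae than in larvae (adjusted p = 0.00337, with 45.4% of all probe sets called) and the difference of adults from pupae was not called (-0.02 ± 0.21, 95% interval -0.48 to 0.44, adjusted p = 0.94, with 54.4% called). In males the step to pupae was 0.28 ± 0.21 (adjusted p = 0.305, with 48.5% called), and adults were 1.33 ± 0.21 higher than pupae (adjusted p = 0.000244, with 51.0% called), a ratio of 2.51. The male step to pupae was called without male pupae replicate 2 (0.58, adjusted p = 0.0479), which is the lower of the male pupal arrays.

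From larvae to adults the increase of the _at set was called in both sexes. Adult females were 0.92 ± 0.21 above female larvae (adjusted p = 0.00305, with 52.6% of all probe sets called), a ratio of 1.89. Adult males were 1.61 ± 0.21 above male larvae (adjusted p = 4.68e-05, with 56.6% called), a ratio of 3.05. These 4 called stage differences kept their direction and their call in each alternative run for this probe set.

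The change of the sex difference was tested directly. From pupae to adults the female minus male difference of the _at set moved by -1.35 ± 0.29 (adjusted p = 0.00247, with 51.5% of all probe sets called). From larvae to pupae it moved by 0.66 ± 0.29, which was not called (adjusted p = 0.159, with 17.5% called). Without male pupae replicate 1 this value was 0.96 (adjusted p = 0.0455). The comparisons share groups, so these values are not independent of the ones above.

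No stage difference of the _s_at set was called. The values lay between -0.15 and 0.28, and the largest, adults over pupae in females, was 0.28 ± 0.14 (95% interval -0.04 to 0.60, adjusted p = 0.128). That one was called after recentring (0.35, adjusted p = 0.0491) and under array-median centring (0.44, adjusted p = 0.0231). The change of its sex difference was 0.09 ± 0.20 from larvae to pupae (adjusted p = 0.821) and 0.04 ± 0.20 from pupae to adults (adjusted p = 0.899).

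**Figure D2:**
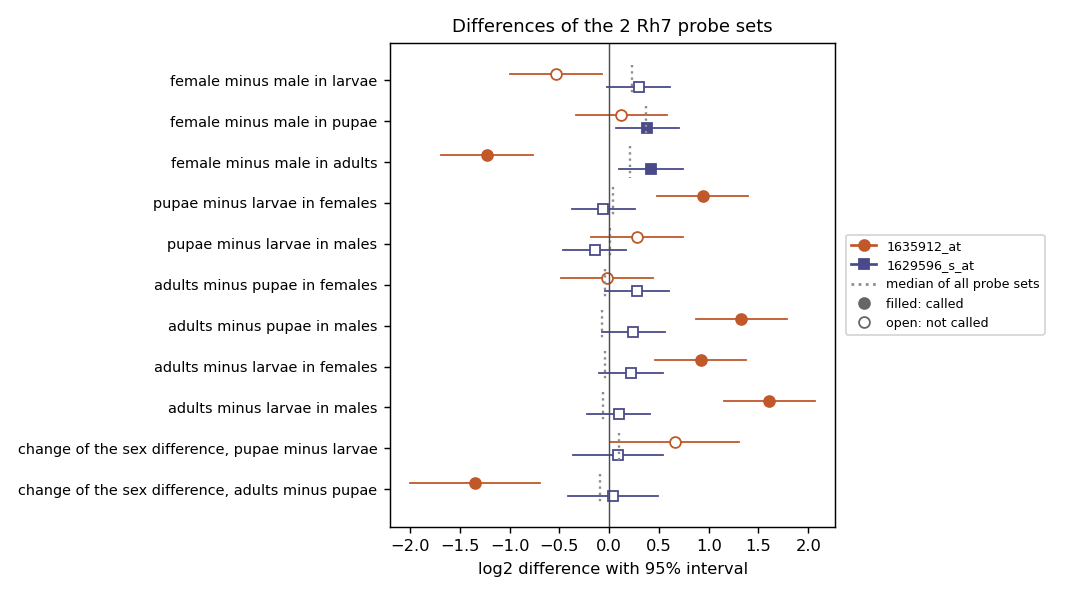
Log2 difference (horizontal axis) of both Rh7 probe sets in the 11 comparisons, with 95% intervals and a dotted line at the median of all probe sets. Filled marks were called: 6 for the _at set and 2 for the _s_at set, and the 2 of the _s_at set (0.38 in pupae and 0.42 in adults) stand beside medians of 0.37 and 0.21.

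Across the 12 arrays the probe sets of Rh7 had a correlation of r = -0.14, given as a description. Whether they changed differently was tested on the within-array difference of the _at set minus the _s_at set, a test chosen after the values were seen. It was lower in females than in males (-0.91, 6 arrays each, exact two-sided permutation p = 0.0433). It differed by 0.71 for pupae minus larvae (exact permutation p = 0.0571, 4 arrays each), by 1.11 for adults minus larvae (exact permutation p = 0.114) and by 0.39 for adults minus pupae (exact permutation p = 0.429). Adjusted over these 4 exact tests the lowest p was 0.114. Arrays were permuted across stages for the sex test and across sexes for the stage tests, so differences between those groups count as spread, and the missed threshold does not show that the probe sets changed alike. The smallest p that 4 against 4 arrays allow is 0.0286.

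The genes whose log2 values were most like the _at set over the 12 arrays were Idh3b (Pearson r = 0.95), which encodes a subunit of a mitochondrial isocitrate dehydrogenase, Sap47 (r = 0.93), which encodes a synapse-associated protein, and Npc2h (r = 0.93), of a family of sterol-binding proteins. Those most like the _s_at set were Fbw5 (r = 0.95), CG13198 (r = 0.94) and dpr6 (r = 0.94). They were picked as the highest among all 1-gene probe sets, the 12 arrays fall into 6 groups, and no test is given. In the reference annotation Rh7 lies between CG9760 and CAH2, and 0 other genes overlap its span.

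The genes that act downstream of an opsin were mostly lower in adult females. In the sex comparison of adults, females had lower values for 15 of 18 measured phototransduction genes and higher ones for 2. The median was -1.46, against 0.21 over all probe sets, of which 26.6% were called lower and 39.0% higher. Among 8 genes of opsin maturation and chromophore supply, 6 were lower in females and 0 higher (median -1.18). Of both lists the largest differences were ninaD, a scavenger receptor for carotenoid uptake (-2.44 ± 0.30), Pdh, a retinal pigment cell dehydrogenase (-2.18 ± 0.13), inaD, the scaffold of the phototransduction complex (-1.71 ± 0.13), and Gprk1, a receptor kinase that was higher in females (1.62 ± 0.11). The value of the _at set (-1.23) was of the same sign as most of these and that of the _s_at set (0.42) was not. This did not hold in larvae. There 9 of 18 phototransduction genes were higher in females and 0 lower, with 39.0% of all probe sets called, and the _at set read -0.54 (not called). In pupae 14 were higher and 1 lower, with 66.3% of all probe sets called, and the _at set was not called (0.12).

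Over the lists of phototransduction, opsin maturation, opsin transcription regulators and clock genes, 9 genes were read by more than 1 probe set. The brightest stands for the gene, so the counts of called genes can depend on that choice. In the adult sex comparison 6 of these 9 had probe sets called in opposite directions, Galphaq, inaE, rdgA, rdgB, toy and tim. The share over all genes with several probe sets was not counted, and 39.0% of all probe sets were called higher and 26.6% lower. The 2 Rh7 probe sets were also called in opposite directions, but the call of the _s_at set was lost after recentring (0.17, adjusted p = 0.332). For Galphaq, which encodes the G protein that rhodopsin activates, the brightest was higher in females (0.71 ± 0.16) and the other two lower (-1.03 and -1.57).

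Markers of photoreceptors and neurons moved with the _at set in adults, in a comparison where 26.6% of all probe sets were called lower in females and 39.0% higher. The mean log2 value over 5 genes of photoreceptor structure and transmitter was 6.78 to 6.90 on adult female arrays and 7.94 on both adult male arrays. Of these, 4 were lower in females and 1 higher. Over 9 neuron genes the mean was 7.61 to 7.72 in adult females and 8.71 to 8.84 in adult males, with 6 lower in females and 0 higher. Of 3 eye pigment and lens genes 1 was lower and 0 higher, a share near that of all probe sets. Over the 14 seminal fluid genes it was 4.26 to 4.31 in adult females and 12.93 to 13.01 in adult males. At other steps the markers parted from the _at set. From pupae to adults in females 4 of 5 photoreceptor genes were lower and 1 higher (median -1.41). Of 9 neuron genes 7 were lower and 1 higher (median -0.96), with 54.4% of all probe sets called. The _at set was not called there (-0.02). From larvae to pupae in males 5 of 5 and 8 of 9 were higher and 0 lower, with 48.5% called. There the _at set was not called (0.28). The part of these tissues in the Rh7 differences was not tested.

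Genes of the clock, the other setting in which Rh7 has been described, were mixed in sign between adults of the 2 sexes. Of 8 measured genes 2 were higher and 6 lower in females (median -1.02), where 39.0% of all probe sets were called higher and 26.6% lower. The largest were cyc (2.49 ± 0.15) and Clk (-2.22 ± 0.35), which encode partner transcription factors of the clock. Clk was also called lower in females in larvae (-2.36 ± 0.35) and in pupae (-2.99 ± 0.35). From pupae to adults the sex difference moved down for 5 of the 8 and up for 1, and Pdp1 (-2.57 ± 0.30) and cry (-2.38 ± 0.15, adjusted p = 2.92e-07) moved most among those called. Over all probe sets 26.1% moved up and 25.5% down. For the _at set the same value was -1.35.

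The level of cry by group was 5.92 in female larvae and 5.37 in male larvae, 8.55 in female pupae and 7.57 in male pupae, and 8.13 in female adults and 9.53 in male adults. Like the _at set, cry was highest in adult males, but its pupal values were above its larval ones in males too. That step was 2.20 ± 0.10 for cry (adjusted p = 2.85e-08) and 0.28 ± 0.21 for the _at set.

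From larvae to adults 13 of 18 phototransduction genes were higher and 3 lower in females (median 1.47 against -0.04 over all probe sets), and 15 were higher and 2 lower in males (median 3.61 against -0.06). Arr2, the major arrestin of the eye, had the largest difference, 6.90 ± 0.18 in females and 8.57 ± 0.18 in males. Over all probe sets 28.2% were called higher and 24.3% lower in females, and 24.3% higher and 32.2% lower in males. The _at set of Rh7 gave 0.92 in females and 1.61 in males, values that its low readings may have compressed. The regulators of opsin transcription went the other way, with 0 of 15 higher and 13 lower in adult females and 3 higher and 10 lower in adult males. Among them toy, an eye specification factor, fell by 2.28 in females and melt, which acts in the choice between R8 opsins, fell by 1.75 in males.

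**Figure D3:**
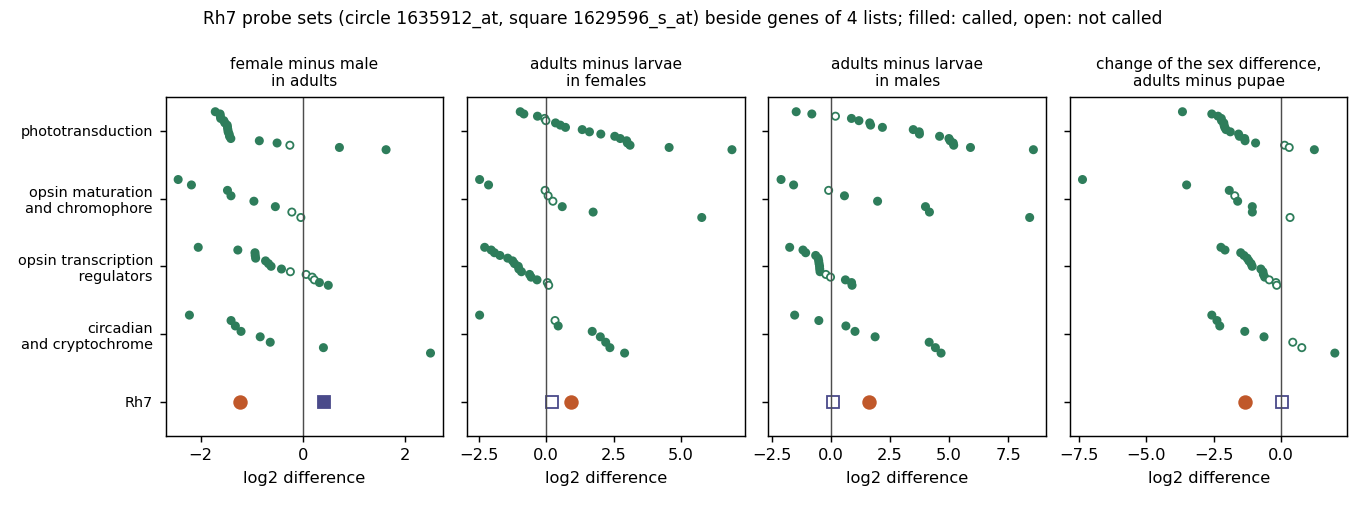
Log2 differences (horizontal axis) of genes of 4 lists, a green point per gene, with the 2 Rh7 probe sets in the lowest row of each of 4 comparisons. Filled marks were called, and the _at set lies on the side of most phototransduction genes in all 4 panels.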

How the data were processed

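The values of the 12 arrays (Affymetrix Drosophila Genome 2.0) were deposited by the authors on the log2 scale, as RMA output per the submitters' processing notes. No source used here states the RMA options. Of 18952 probe sets, 183 controls were left out. The platform annotation gave 1 gene for 13647 of the rest, several for 402, and 4720 were unnamed here. Names were checked in RefSeq genes of Release 6, whose coordinates are not printed since the files name no build.

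Differences were tested with limma 3.58.1 in R 4.3.3. One model with a mean per group was fitted to all 12 arrays, without covariates (6 residual and 4.1 prior degrees of freedom). It was tested on simulated data first. A value after ± is an SE for a difference and an SD for a group mean. The number of arrays limits the precision, and no batch is given in the labels.

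The members and gene lists were chosen with earlier results of these data known. Lists were phototransduction (18 of 23 measured), opsin maturation and chromophore (8 of 11), opsin transcription regulators (15), circadian and cryptochrome (8) and markers of photoreceptor structure (5), eye pigment and lens (3 of 6), neuron (9 of 10), ovary and yolk (10 of 11), testis (7) and seminal fluid (14). The probe set with the highest mean stands for a gene. Named were both Rh7 probe sets, the 4 called genes of the first 2 lists and the 2 of each other list with the largest difference per comparison, and the 3 genes most like each Rh7 probe set. The text gives a selection of these, and Galphaq and the other genes with opposing probe sets were named after their values were seen.

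Alternatives were quantile normalization, recentring on the median deviation from probe set means, array-median centring, a filter on probe sets with a mean at or below the 25th percentile, 1 probe set per gene, robust eBayes with a trend, a replicate block, a fit of the groups compared, and each array left out.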

Additional observations from a re-analysis of the deposited data

Results flagged for a closer look

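The sex difference of the _at probe set of Rh7 changed from pupae to adults, by -1.35 ± 0.29 (adjusted p = 0.00247, limma interaction contrast). The female minus male difference was -1.23 in adults and 0.12 in pupae. Both adult male arrays were above both adult female arrays, and the pupal arrays of the sexes overlapped. Over all probe sets 51.5% were called in this comparison. Left out 1 array at a time, the value ran from -1.65 to -1.05 with adjusted p up to 0.0125.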

How the results depend on the processing

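For the _at set, 112 of 118 alternatives left the result on its side of the threshold. For the _s_at set, 128 of 140 did. In 10 and 8 of them the sign differed from the reported value, always where neither value was called. Quantile normalization gave calls in larvae between the sexes of 0.66 (the _s_at set) and -0.74 (the _at set). Recentring gave -0.72 there for the _at set, 0.11 in pupae and 0.17 in adults for the _s_at set, and 0.35 for its adult minus pupal difference in females. Array-median centring gave 0.67 in larvae for the _s_at set, 0.50 in pupae for the _at set, and 0.44 for adults minus pupae in females for the _s_at set. A fit of the compared groups gave -0.54 with a call in larvae (the _at set) and 0.38 without one in pupae (the _s_at set). With each array left out, the sex difference of the _s_at set ran from 0.25 to 0.52 in pupae and from 0.27 to 0.57 in adults. For the _at set, pupae minus larvae in males ran from -0.017 to 0.58, and the change of the sex difference from larvae to pupae from 0.36 to 0.96. The cause of these changes was not tested. Over all probe sets, calls between larval sexes numbered 7318, against 4175 after recentring, 16661 under array-median centring and 4076 to 5718 with 1 array left out (4076 without male larvae replicate 2). Between pupal sexes 12435 were called, and 6693 after recentring. With the replicate block no Rh7 call changed: the adult sex difference of the _at set was -1.23 (adjusted p = 0.000593). The correlations of same-numbered replicate deviations between groups ran from -0.08 to 0.08, so the numbers were not treated as pairs. The dim-probe filter and 1 probe set per gene leave out the _at set, whose mean of 4.35 is below the cut of 5.06. The planned comparison of Rh3 with Rh4 and Rh5 with Rh6 was not run, since these genes were not analysed here.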
